A study of Homo sapiens with 24 samples.

Results

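SR proteins and hnRNPs are the RNA-binding proteins that decide which exons of a transcript are kept. SR proteins, encoded by the *SRSF* genes, mostly bind enhancer sequences in exons and recruit the splicing machinery, while hnRNPs mostly bind silencers and repress the use of nearby splice sites. Many of these genes also control their own level by splicing in a poison exon that sends the transcript to nonsense-mediated decay. Here the mRNA levels of these genes were followed in T-47D cells, a luminal breast cancer line that expresses estrogen receptor alpha (ER). The members were chosen by gene symbol alone: *SRSF* genes, *HNRNP* genes, *TRA2A*, *TRA2B*, *PTBP1*, *ESRP1* and *ESRP2*, with a mean of at least 1 CPM, the count scaled to the size of the library, over all libraries. Of 46 symbols that fit the names, 4 were pseudogene names and 5 (*SRSF12* and 4 *HNRNPCL* genes) were below 1 CPM, which left 37 members of 26364 genes: 11 *SRSF* genes, 21 *HNRNP* genes and the 5 named regulators.

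The 24 RNA-seq libraries came from WT ER cells and from cells with the Y537S or D538G mutation in 1 allele of endogenous *ESR1*, with 2 clones per genotype, so that each condition had 2 libraries. All cells were grown without hormone and were collected 24 h after transfection at 10 nM. WT cells received a mimic negative control or a mimic of miR-301b, miR-331 or miR-181c, D538G cells received the mimic control, miR-301b or miR-181c, and Y537S cells received the mimic control, miR-301b, miR-331, an inhibitor negative control or a let-7f inhibitor. A mimic raises the level of a miRNA and an inhibitor blocks it. The same 2 clones of a genotype stand behind all of its conditions, so the clone is the only replicate, and one of the GEO labels spells Y537S as Y573S.

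Libraries held between 31379962 and 50526442 counts, and members took 0.881% to 0.948% of the counts in WT cells, 0.981% to 1.09% in D538G cells and 0.954% to 1.13% in Y537S cells. Luminal markers were abundant in every library, with *GATA3* between 1360 and 1710 CPM and *KRT8* between 2220 and 5050 CPM. The summed level of 4 leukocyte markers did not exceed 3.01 CPM and that of 3 endothelial markers did not exceed 0.198 CPM. Of the 4 fibroblast markers only *COL1A1* was above 3 CPM, at 47.5 to 81.2 CPM in all genotypes. The 3 basal markers summed to 3.70 to 8.27 CPM in WT libraries against at most 1.28 CPM in mutant libraries; this was *TP63*, since *KRT5* and *KRT14* stayed below 0.4 CPM, and its part in the genotype results was not tested.

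The 4 miRNAs, 3 given as mimics and let-7f blocked by an inhibitor, act through their seed. These are bases 2 to 8, which pair with matching sites in 3′ untranslated regions. Their mature sequences (RefSeq, GRCh38.p14) are shown with the seed in capitals because the seed sets which members could be direct targets. The 4 seeds differ from each other.
hsa-miR-301b-3p: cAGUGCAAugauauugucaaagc
hsa-miR-331-3p: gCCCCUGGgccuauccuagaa
hsa-miR-181c-5p: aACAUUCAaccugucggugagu
hsa-let-7f-5p: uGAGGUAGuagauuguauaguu

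A 7-base match to the miR-301b seed (TTGCACT) was present in the 3′UTR of 6 of 37 members (16.2%, against 16.1% of 13223 coding genes with a 3′UTR), and a match to miR-331 (CCAGGGG) in 3 (8.11% against 15.5%). A match to miR-181c (TGAATGT) was present in 10 members (27.0% against 21.3%) and one to let-7f (CTACCTC) in 4 (10.8% against 10.9%). Only the sense strand of 1 transcript per gene was searched. Thus for miR-301b and let-7f the members carried sites at about the share of other genes. *SRSF10*, which acts as a splicing repressor when dephosphorylated, held a match to all 4 miRNAs in its 6795-base 3′UTR. Longer matches, in which an A follows the 7 bases, were found in 2, 1, 5 and 0 members for miR-301b, miR-331, miR-181c and let-7f.

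Members shared features that the name rule did not use. Their transcripts had a median GC content of 42.4% against 48.8% over all annotated genes tested, and 27 of 37 were below the all-gene median. A transcript annotated as a nonsense-mediated decay target existed for 30 of 37 members (81.1%) against 46.5% of the 13244 protein-coding genes tested, and *HNRNPA2B1* had 35 of them. Gene counts sum productive and decay-bound transcripts, so the balance between them could not be read. Per kilobase of transcript, the highest mean levels over all libraries were those of *HNRNPA2B1* (381 CPM per kb), *HNRNPF* (236), *HNRNPK* (192) and *HNRNPL* (174), and the lowest were *SRSF10* (1.03), *HNRNPH2* (1.27), *HNRNPA1L2* (4.79) and *HNRNPA1* (5.81). The level of *HNRNPA1*, which counteracts SR proteins at many exons, is uncertain, because RefSeq names 75 pseudogenes of it and how reads with several matches were counted is not given in the sources used here. The same holds for *HNRNPA1L2*, a near copy of it, and for *HNRNPH2* and *HNRNPUL2*, which share 15.8% and 44.3% of their exon bases with a readthrough gene. Exons of other annotated genes also overlap *SRSF1* on the same strand (32.69% of its exon bases). On either strand they overlap, among others, *HNRNPA3* (54.78%), *SRSF9* (46.73%) and *SRSF2* (27.65%). Whether this touched their counts was not tested.

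The first comparison asked how the members differ between ER mutant and WT cells given only the mimic control. In Y537S cells 19 of 37 members (51.4%) were up-regulated and 1 (*ESRP2*) was down-regulated, against 16.3% up and 12.7% down among all genes tested. In D538G cells 16 members (43.2%) were up-regulated and 3 (*ESRP2*, *SRSF9* and *SRSF5*) were down-regulated, against 20.4% up and 18.5% down among all genes tested. The member median log2 fold change was 0.27 in Y537S cells and 0.18 in D538G cells, with all-gene medians within 0.003 of 0. The shared WT control libraries enter both comparisons. Here and below, most genes named with values were picked for the size of their change or their p. That their groups of 2 libraries do not overlap follows largely from that choice and is no further support. The share of all genes without such overlap was not counted. These are bulk libraries, so a change in RNA per cell and a change in the share of cells that express a gene cannot be told apart.

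*HNRNPAB* (chr5:177631534-177638164, + strand; all positions are on GRCh37, the same sequence as the hg19 build of the counts), an hnRNP that also binds DNA and RNA in transcription and transport, gave the largest increase in both mutants. It was at 164 CPM in both WT clones, 267 and 294 in the D538G clones and 327 and 322 in the Y537S clones. The 3 genotypes did not overlap, and the log2 fold change was 1.00 (SE 0.0717, adjusted p = 0.000175) in Y537S and 0.76 (SE 0.0733, adjusted p = 7.38e-05) in D538G cells. *HNRNPK* (chr9:86582998-86595130, − strand), which binds C-rich RNA through KH domains, was at 414 and 437 CPM in WT, 593 and 687 in D538G and 747 and 567 in Y537S clones. Both mutants lay above WT but overlapped each other, with log2 fold changes of 0.64 (SE 0.125, adjusted p = 0.00882) and 0.58 (SE 0.081, adjusted p = 0.00058). *PTBP1* (chr19:797452-812312, + strand), the polypyrimidine tract binding protein that represses many exons, was at 251 and 267 CPM in WT, 377 and 392 in D538G and 416 and 373 in Y537S clones. Its log2 fold change was 0.62 (SE 0.0836, adjusted p = 0.00201) in Y537S and 0.56 (SE 0.0671, adjusted p = 0.000251) in D538G cells, and the mutants overlapped each other.

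*ESRP2* (chr16:68262936-68270030, − strand), an epithelial splicing regulator, moved the other way. It was at 287 and 307 CPM in WT, 167 and 157 in D538G and 187 and 217 in Y537S clones, with no overlap between genotypes. The log2 fold change was −0.54 (SE 0.0966, adjusted p = 0.00636) in Y537S and −0.89 (SE 0.0704, adjusted p = 3.04e-05) in D538G cells. Its paralog *ESRP1* was at 292 to 309 CPM in these 6 libraries and passed the test in neither mutant.

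Among the SR genes, *SRSF1*, *SRSF2*, *SRSF3* and *SRSF7* were up-regulated in both mutants. *SRSF1* (chr17:56078280-56084607, − strand), an oncogenic SR protein in breast tissue, was at 334 and 319 CPM in WT, 455 and 474 in D538G and 435 and 429 in Y537S clones. Neither mutant overlapped WT, and the log2 fold change was 0.42 (SE 0.0737, adjusted p = 0.00593) in Y537S and 0.50 (SE 0.065, adjusted p = 0.000401) in D538G cells. *SRSF7*, which also takes part in mRNA export, had log2 fold changes of 0.59 in Y537S and 0.38 in D538G cells. *SRSF9* was at 120.4 and 137 CPM in WT, 93.6 and 93.2 in D538G and 118 and 117 in Y537S clones, and was down-regulated in D538G cells (log2 fold change −0.48, SE 0.0822, adjusted p = 0.00181) but not called in Y537S cells. *SRSF5* fell by 0.29 on the log2 scale in D538G cells (SE 0.0644, adjusted p = 0.0068). *SRSF4*, *SRSF6*, *SRSF8*, *SRSF10* and *SRSF11* passed the test in neither mutant, with log2 fold changes between −0.26 and 0.24. *TRA2B*, which binds GA-rich exonic enhancers, was at 177 and 174 CPM in WT, 215 and 227 in D538G and 227 and 225 in Y537S clones, up-regulated in both mutants (log2 fold changes 0.32 in D538G and 0.38 in Y537S, adjusted p = 0.00541 and 0.00769). *HNRNPA1* was at 23.2 and 21.8 CPM in WT, 19.2 and 23.9 in D538G and 27.3 and 25.2 in Y537S clones, and passed the test in neither.

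Of the 21 *HNRNP* genes, 13 were up-regulated in Y537S and 10 in D538G cells, and none was down-regulated in either by edgeR, at an unadjusted p under 0.05 or by DESeq2 (0 genes each). Besides *HNRNPAB* and *HNRNPK*, those up in Y537S cells had log2 fold changes from 0.25 (*HNRNPA3*) to 0.51 (*HNRNPH3*), and those up in D538G cells from 0.20 (*HNRNPL*) to 0.39 (*HNRNPDL*). Of all members, 24 in Y537S and 21 in D538G cells had an unadjusted p under 0.05. The share of all genes under that p is not given here, so these counts were not read further. With a correction for the GC content of transcripts, 19 members were up and 3 down in Y537S cells, against 17.3% and 13.6% of all genes, and 17 up and 3 down in D538G cells, against 21.7% and 19.2%. Fewer members were called in Y537S cells when either WT mimic control library was left out, and the number changed less in D538G cells. The share of all genes called in fits with 1 library left out is not given here or below. Such a fit leaves 1 library in a group, and a change in member calls may follow that of all genes.

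**Figure D1:**
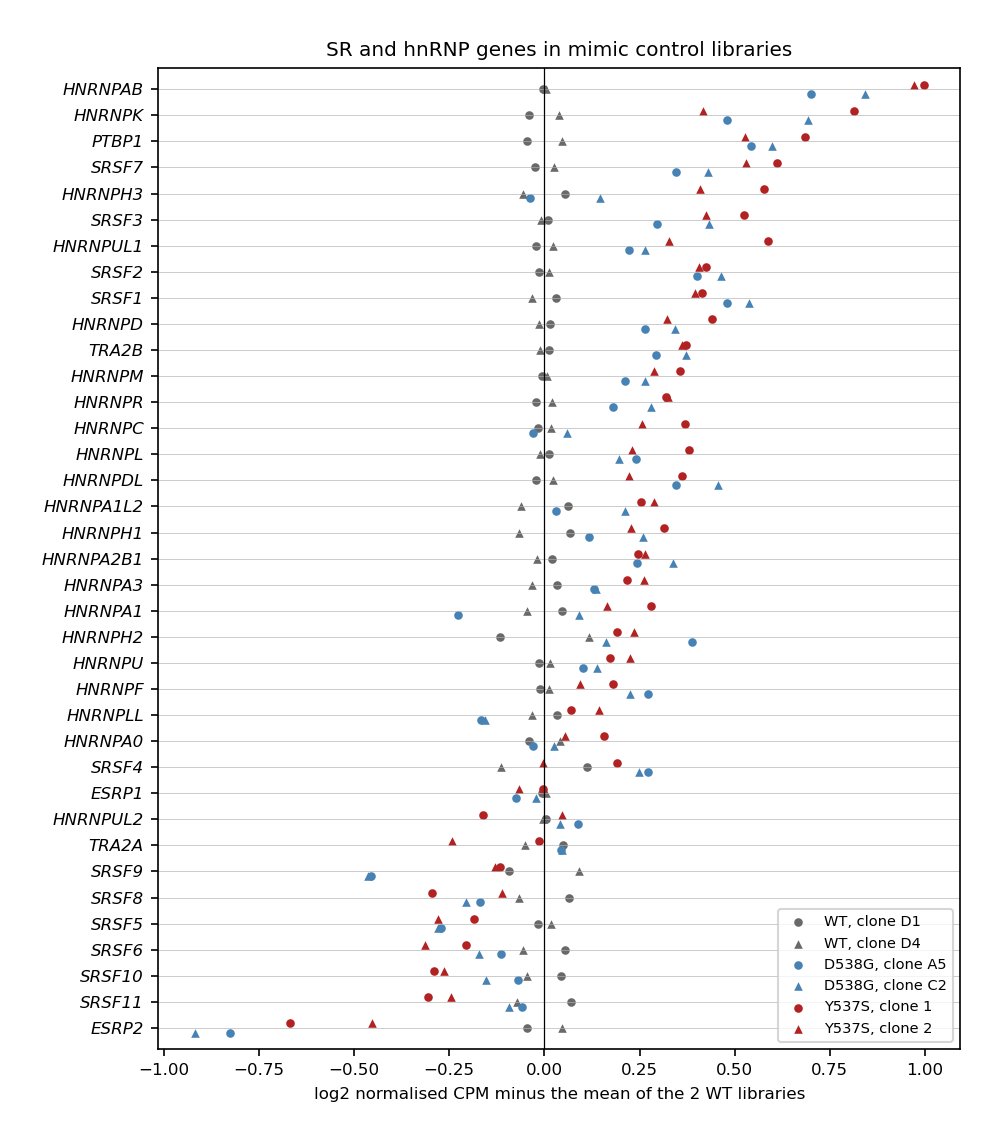
Level of each member in the 6 mimic control libraries, as log2 normalised CPM minus the mean of the 2 WT libraries (x axis), with genes ordered by the Y537S difference (y axis). Points are single libraries, coloured by genotype and shaped by clone: *HNRNPAB* at the top lies about 1 unit above WT in Y537S cells, and *ESRP2* at the bottom lies below WT in all 4 mutant libraries.

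The levels were then read across all conditions of a genotype, which repeats the same clones in other libraries. In each of the 10 Y537S libraries 13 members (35.1%) were above all 8 WT libraries and 1 (2.7%) was below, against 10.7% and 8% of all genes tested. In each of the 6 D538G libraries 13 members (35.1%) were above all 8 WT libraries and 4 (10.8%) were below, against 14.8% and 11.5% of all genes tested. *HNRNPAB* ranged from 283 to 340.1 CPM (median 323) in Y537S, from 245 to 297 (median 269) in D538G and from 144 to 185 (median 169) in WT libraries. *ESRP2* ranged from 154 to 246 CPM (median 203) in Y537S, from 155 to 167 (median 158) in D538G and from 260.1 to 310.2 (median 303) in WT libraries. *SRSF1* was also above WT in every mutant library, with a median of 394 CPM in Y537S, 415 in D538G and 314 in WT, while *HNRNPA1* overlapped throughout. In the miR-331 mimic libraries 13 members were higher and 7 lower in Y537S than in WT cells (among the latter *HNRNPH1*, which was higher in the mimic control libraries), against 24.8% of all genes in each direction. In the miR-301b mimic libraries 6 were higher and 1 lower, against 12% and 8.37%. For D538G against WT, 13 were higher and 3 lower in the miR-181c mimic libraries, against 17.5% and 17.3% of all genes, and 7 were higher and 3 lower in the miR-301b mimic libraries, against 16.1% and 15.3%. Of the 37 members, 16.2% and 18.9% were higher in the 2 miR-301b fits, near the share of all genes. Between the mutants, *SRSF9* alone was higher in Y537S cells in the miR-301b libraries, against 4.39% higher and 2.32% lower among all genes. *HNRNPAB* was called in all 4 of these fits, with log2 fold changes of 1.17, 0.79, 0.65 and 0.53 in the order given, and *ESRP2* likewise at −0.80, −0.60, −0.97 and −0.85.

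The mutants were compared directly to ask where they differ from each other. In the mimic control libraries 2 members (5.41%) were higher in Y537S than in D538G cells and none was lower, against 3.93% and 2.26% of all genes tested. *HNRNPH3* (chr10:70091821-70102950, + strand), of the family that binds G-rich RNA, was at 209 and 186 CPM in Y537S and 137 and 155 in D538G clones (log2 difference 0.46, SE 0.0979, adjusted p = 0.0407). *SRSF9* (chr12:120899475-120907551, − strand) was higher in Y537S cells by 0.36 on the log2 scale (SE 0.0807, adjusted p = 0.0475). Neither gene overlapped between the mutants. Both calls were lost when either D538G library was left out, and the call of *HNRNPH3* was lost with a correction for transcript GC content (adjusted p = 0.0536; 3.44% higher and 1.94% lower among all genes).

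The treatments were compared with the matched control in the same genotype. Because the same clones carry mimic and control, each count is given without and with the clone as a term in the model. The clone differences correlated between conditions, and this block raised the number of calls over all genes as well as over members. The GC content of transcripts moved with the treated libraries: in all 7 mimic comparisons the genes below the median GC content had a median log2 fold change between −0.24 and −0.12, and those above it between 0.16 and 0.33. Since members are AT-rich, the counts of members called are also given after the trend of log2 level on GC content was removed from every library. The part of GC content in the results was not tested beyond this.

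**Figure D2:**
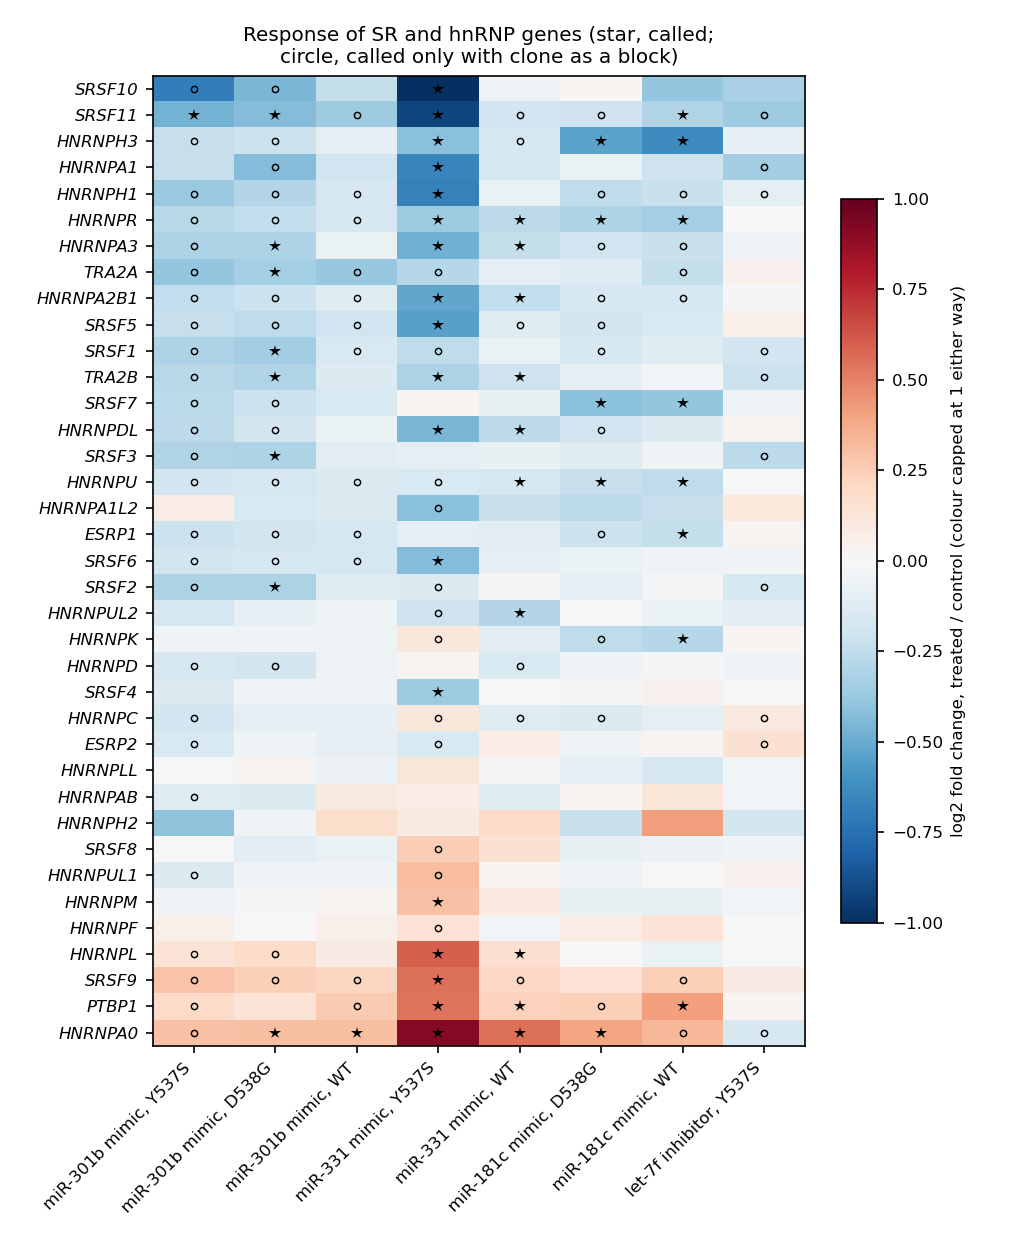
Log2 fold change of each member (y axis) for the 8 treatments against their controls (x axis), blue for lower and red for higher. Stars mark members called without the clone in the model and open circles those called only with it: *HNRNPA0* in the bottom row is higher with all 7 mimics, and *SRSF11* near the top is lower with all 8 treatments, not all of them called.

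With the miR-301b mimic in Y537S cells 1 member was down-regulated (2.70%) and none was up-regulated, against 2.34% down and 1.23% up among all genes tested. With the clone as a block 23 members (62.2%) were down and 4 (10.8%) up, against 20% and 18.4% of all genes. The called gene was *SRSF11* (chr1:70687063-70718735, + strand), an SR-related protein, at 99.1 and 96.3 CPM with the mimic and 130.2 and 136 with the control (log2 fold change −0.47, SE 0.0868, adjusted p = 0.0487). The groups did not overlap. *SRSF1* was at 366 and 344 CPM against 435 and 429, *TRA2B* at 198 and 182 against 227 and 225, and *HNRNPA1* at 23.4 and 22.1 against 27.3 and 25.2, none of them called. The member median was −0.20, and −0.06 after the GC correction. There edgeR called no member, against 0.112% down and 0.0396% up among all genes. At an unadjusted p under 0.05 were 7 members and 2152 of 15145 genes. With the clone added 10 were down and 5 up, against 14.2% and 14.1% of all genes. Without either, DESeq2 called 7 members down and 1 up, against 4.95% and 3.76% of all genes. The single call was lost when any of the 4 libraries was left out.

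The miR-301b mimic in D538G cells gave 7 members down (18.9%) and 1 up (2.70%), against 6.49% and 5.29% of all genes tested. The block gave 20 members (54.1%) down and 3 (8.11%) up, against 16.9% and 16.4% of all genes. *SRSF11* was at 120.3 and 106 CPM with the mimic and 154 and 151 with the control (log2 fold change −0.44, SE 0.0887, adjusted p = 0.0163). *SRSF1* was at 377 and 356 CPM against 455 and 474 (log2 fold change −0.35, SE 0.0758, adjusted p = 0.0209). *TRA2A*, the paralog of *TRA2B*, was at 67.2 and 62.2 CPM against 81.7 and 81.9 (log2 fold change −0.34, SE 0.0867, adjusted p = 0.0345). None of the 3 overlapped its control. *SRSF2*, *SRSF3*, *HNRNPA3* and *TRA2B* fell by 0.30 to 0.31 on the log2 scale, and *HNRNPA0* rose by 0.30. *TRA2B* was at 188 and 172 CPM against 215 and 227, and *HNRNPA1* at 16.1 and 15.8 against 19.2 and 23.9, the latter not called. After the GC correction only *HNRNPA0* was called (log2 fold change 0.49, adjusted p = 0.0178), against 0.909% down and 0.579% up among all genes, and the member median went from −0.17 to −0.04. With the block added 6 members were down and 5 up, against 8.04% and 7.84% of all genes. Without the miR-301b library of clone C2 no member was called, and without the control of that clone 1 was.

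In WT cells the miR-301b mimic gave 1 member up (2.70%) and none down by edgeR, against 4.63% and 3.87% of all genes tested. There were 9 members at an unadjusted p under 0.05, against 4025 of 15113 genes. DESeq2 called 2 up and 2 down, against 4.44% and 4.38% of all genes. With the clone block 10 members (27.0%) were down and 3 (8.11%) up, against 14.2% and 14% of all genes. After the GC correction only *HNRNPA0* was called, up, against 2.81% down and 1.84% up among all genes, and the member median turned from −0.09 to 0.025. With both, 4 members were down and 6 up, against 7.21% in each direction. *SRSF11* was at 142 and 109.6 CPM against 169 and 153 and was not called. *SRSF1* was at 315 and 274 CPM against 334 and 319, *TRA2B* at 163 and 156 against 177 and 174, and *HNRNPA1* at 21.6 and 17.5 against 23.2 and 21.8. The difference between the response of a mutant and that of WT cells was tested with an interaction term. No member was called by edgeR or DESeq2 for Y537S (0.00632% of all genes called, 0 members at an unadjusted p under 0.05) or for D538G (0.0064% of all genes, 0 members by edgeR and 1 by DESeq2 at an unadjusted p under 0.05). A response called in a mutant and not in WT cells was therefore not shown to differ. How many of all genes had that unadjusted p in the interaction tests is not given.

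The site in *SRSF11* is shown because it is the only seed match to miR-301b in a member that fell by the test. It lies in the 3′UTR of the last exon, at chr1:70718601-70718627 (+ strand), with the match in capitals.
*SRSF11*, miR-301b: aaaggtagtgTTGCACTgggacacaag
The 6 members with a match had a median log2 fold change of −0.27 in Y537S, −0.23 in D538G and −0.16 in WT cells, and the 31 without a match −0.19, −0.17 and −0.08. Over all genes with a 3′UTR the medians were −0.16, −0.14 and −0.15 with a match and 0.03, 0.03 and 0.02 without. Members without a site were thus also lower than other genes without one. After the clone block and the GC correction the medians of members with a match were 0.01, −0.01 and 0.04, and of those without −0.07, −0.06 and 0.02. Over all genes they were then −0.06, −0.046 and −0.055 with a match and 0.02, 0.019 and 0.021 without.

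The miR-331 mimic in Y537S cells gave the most member calls of any treatment. There 13 members were down (35.1%) and 5 up (13.5%), against 15.8% and 17.2% of all genes tested. With the clone block 20 members (54.1%) were down and 10 (27.0%) up, against 30.2% and 30.5% of all genes. *SRSF10* (chr1:24290837-24306817, − strand) was at 3.25 and 3.26 CPM with the mimic and 8.37 and 8.52 with the control (log2 fold change −1.36, SE 0.205, adjusted p = 0.00892). *SRSF11* was at 65.6 and 73.4 CPM against 130.2 and 136 (log2 fold change −0.92, SE 0.106, adjusted p = 0.00637). *HNRNPA0* (chr5:137081340-137090052, − strand), an hnRNP that binds AU-rich mRNA, rose from 155 and 145 to 306 and 255 CPM (log2 fold change 0.92, SE 0.117, adjusted p = 0.00688). In none of these did mimic and control overlap.

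Below them in size, *HNRNPH1* (chr5:179041179-179050672, − strand) fell by 0.68 on the log2 scale, from 383 and 360.4 to 228 and 231 CPM, and *HNRNPA1* by 0.66, from 27.3 and 25.2 to 15.9 and 16.9 CPM. *SRSF5*, *HNRNPA2B1*, *HNRNPA3*, *HNRNPDL*, *SRSF6*, *HNRNPH3*, *HNRNPR*, *SRSF4* and *TRA2B* fell by 0.32 to 0.55. *HNRNPL*, which binds CA repeats, rose by 0.60 (chr19:39327010-39340626, − strand), from 392 and 353 to 574 and 542 CPM. *SRSF9*, *PTBP1* and *HNRNPM* rose by 0.55, 0.54 and 0.29. *TRA2B* was at 177 and 181 CPM against 227 and 225, and *SRSF1* at 376 and 340.1 against 435 and 429, the latter not called. After the GC correction 6 members were down and 5 up, against 9.28% and 11.2% of all genes, and the member median turned from −0.15 to 0.09. *HNRNPR*, whose transcript is the most AT-rich of all members at 35.1% GC, turned from −0.36 to 0.27, while *SRSF10*, *SRSF11*, *HNRNPH1* and *HNRNPA1* remained down (log2 fold changes −0.78, −0.57, −0.49 and −0.46). With both the block and the GC correction 10 were down and 16 up, against 23.1% and 30.3% of all genes. Leaving out 1 library at a time left 9 to 14 members called, with 9 and 10 when control clone 1 or 2 was left out and 11 when mimic clone 2 was.

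**Figure D3:**
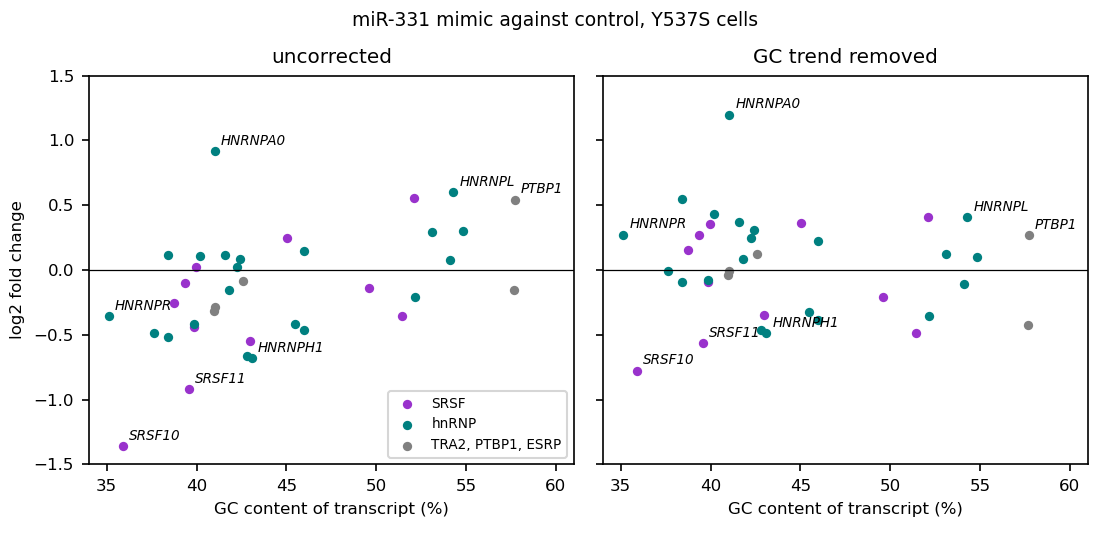
Log2 fold change of each member (y axis) with the miR-331 mimic in Y537S cells against the GC content of its transcript in percent (x axis), before (left) and after (right) the GC trend was removed, with each point a member coloured by family. *SRSF10* goes from −1.36 to −0.78 and *HNRNPR* from −0.36 to 0.27, while *HNRNPA0* goes from 0.92 to 1.20.

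Fewer members were called with the miR-331 mimic in WT cells, where 7 were down (18.9%) and 3 up (8.11%). The shares of all genes tested were 10.6% and 14.2%, also below those in Y537S cells. The block gave 12 members (32.4%) down and 4 (10.8%) up, against 17.2% and 19.8% of all genes. *HNRNPA0* rose from 136 and 143 to 199.5 and 202 CPM (log2 fold change 0.55, SE 0.0603, adjusted p = 0.000246). *HNRNPUL2* (chr11:62480102-62494929, − strand; its reads are shared with a readthrough gene) fell from 74.8 and 74.4 to 60.3 and 59.4 CPM (log2 fold change −0.29, SE 0.0639, adjusted p = 0.00752). *HNRNPDL* fell from 247 and 254 to 201 and 210.0 CPM (log2 fold change −0.26, SE 0.0575, adjusted p = 0.00783). None of these overlapped its control. *HNRNPR*, *HNRNPA2B1*, *HNRNPA3*, *TRA2B* and *HNRNPU* fell by 0.18 to 0.26, and *PTBP1* and *HNRNPL* rose by 0.23 and 0.17. *TRA2B* was at 146 and 154 CPM against 177 and 174, and *SRSF1* (297 and 315 against 334 and 319) and *HNRNPA1* (18.4 and 20.6 against 23.2 and 21.8) were not called. After the GC correction 1 member was down and 2 were up, against 2.56% and 5.09% of all genes, *HNRNPU* was at 0.01, and the member median turned from −0.09 to 0.07. With the block added the balance turned to 3 down and 10 up, against 7.83% and 14.9% of all genes. Without the miR-331 library of clone D1 1 member was called, without that of D4 4 were, and without control D1 6 were.

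The difference between these 2 responses passed the test for 4 members: 3 (8.11%) were lower and 1 (2.70%) higher in Y537S than in WT cells, against 6.47% and 3.47% of all genes tested. With the clone block 13 members (35.1%) were lower and 10 (27.0%) higher, against 17.4% and 16.7% of all genes. *SRSF10* differed by −1.34 on the log2 scale (SE 0.23, adjusted p = 0.012): in WT cells it was at 10.8 and 8.86 CPM with the mimic and 10.5 and 9.91 with the control. *SRSF11* differed by −0.74 (SE 0.118, adjusted p = 0.00882), and was at 138 and 139 CPM against 169 and 153 in WT cells. *HNRNPH1* differed by −0.63 and *HNRNPL* by 0.41. After the GC correction, where 5.55% of all genes were lower and 2.2% higher, the first 3 were still called and *HNRNPL* was not (log2 difference 0.28, adjusted p = 0.127). Without the WT mimic library of clone D1, or without the WT control of D4, no member was called by edgeR, and without the WT mimic library of D4 2 were.

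Sites for miR-331 are shown for the members that fell in Y537S cells and hold a match, with the match in capitals. In *SRSF10* (chr1:24294344-24294370, − strand) an A follows the match, and in *HNRNPA1* (chr12:54679907-54679933, + strand) it does not.
*SRSF10*, miR-331: aagttacatcCCAGGGGaaagacctgg
*HNRNPA1*, miR-331: tacagataagCCAGGGGcaggccacgg
The only other member with a match was *ESRP2*. In WT cells the 3 had a median log2 fold change of −0.03 and the other 34 members −0.09, against −0.66 and −0.12 in Y537S cells. Over all genes the median was 0.14 with a match and 0.00 without in Y537S cells, and 0.06 and −0.01 in WT cells: genes with a match were the higher set. After the block and the GC correction these were 0.03 and 0.09, and 0.00 and 0.04.

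The miR-181c mimic in D538G cells gave 4 members down (10.8%) and 1 up (2.70%), against 3.95% and 5.58% of all genes tested. The block gave 14 members (37.8%) down and 2 (5.41%) up, against 13.6% and 15.6% of all genes. In WT cells 7 members were down (18.9%) and 1 up (2.70%), against 8.28% and 8.10% of all genes tested, and with the block 11 (29.7%) were down and 3 (8.11%) up, against 13.4% and 14.5%. *HNRNPH3* had the largest decrease in both genotypes. It went from 137 and 155 to 99.7 and 100.4 CPM in D538G (log2 fold change −0.54, SE 0.0833, adjusted p = 0.0065) and from 146 and 135 to 91.8 and 90.9 in WT cells (−0.63, SE 0.0754, adjusted p = 0.000619). *SRSF7* (chr2:38970741-38978503, − strand) went from 107 and 113 to 81.0 and 83.9 CPM in D538G (−0.41, SE 0.0778, adjusted p = 0.0135) and from 82.6 and 85.4 to 63.4 and 66.4 in WT cells (−0.39, SE 0.0767, adjusted p = 0.00835). Neither gene overlapped its control in either genotype.

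*PTBP1* rose with miR-181c in WT cells from 251 and 267 to 341 and 354 CPM (log2 fold change 0.41, SE 0.0693, adjusted p = 0.00397). In D538G cells *HNRNPA0* rose from 136 and 142 to 179 and 186 CPM (log2 fold change 0.40, SE 0.0727, adjusted p = 0.0121). *HNRNPR* fell by 0.31 in D538G and 0.34 in WT cells, and *HNRNPU* by 0.23 and 0.26. *SRSF11*, *HNRNPK* and *ESRP1* fell by 0.24 to 0.30 in WT cells. The 3 marker members were not called: *SRSF1* was at 419 and 411 CPM in D538G and 293 and 314 in WT cells, *TRA2B* at 205 and 210.3, and 165 and 182, and *HNRNPA1* at 19.4 and 21.7, and 17.2 and 22.2. After the GC correction 1 member was called in D538G cells (*HNRNPA0*, up), against 0.782% down and 0.587% up among all genes, and in WT cells 3 were up and only *HNRNPH3* was down, against 4.04% down and 3.36% up. With the block added 7 members were down and 4 up in D538G cells, against 7.93% and 10.8% of all genes, and in WT cells the balance turned to 4 down and 6 up, against 7.69% and 9.33%. No difference between the 2 genotypes was called for any member by edgeR or DESeq2, and edgeR called 0.00646% of all genes. An unadjusted p under 0.05 was found for 0 members, and the number of all genes under it is not given. In D538G cells 1 to 6 members were called when 1 library was left out, with the fewest without the miR-181c library of C2 (1) or A5 (2) or the control of C2 (3), and in WT cells 3 without either control library.

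Of the 4 members that fell and hold a match to miR-181c, the sites of 3 are shown, each followed by an A, with the match in capitals, and the other member is *ESRP1*. *HNRNPA0*, which rose in D538G cells, also held matches. They lie at chr2:38972094-38972120 (− strand) in *SRSF7*, chr1:23635847-23635873 (− strand) in *HNRNPR* and chr1:70717719-70717745 (+ strand) in *SRSF11*.
*SRSF7*, miR-181c: taaattttgtTGAATGTattaacatca
*HNRNPR*, miR-181c: gctggataagTGAATGTacatacaggg
*SRSF11*, miR-181c: tttacgctacTGAATGTatgacattta
*HNRNPH3*, which fell most, held no match in its 3′UTR. The 10 members with a match had a median log2 fold change of −0.17 in D538G and −0.20 in WT cells, and the 27 without −0.09 and −0.07, against −0.15 and −0.18 with and 0.04 and 0.07 without a match over all genes. After the block and the GC correction the members were at 0.00 and −0.02 with a match and −0.02 and −0.01 without. All genes were then at −0.038 and −0.07 with a match and 0.035 and 0.04 without.

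**Figure D4:**
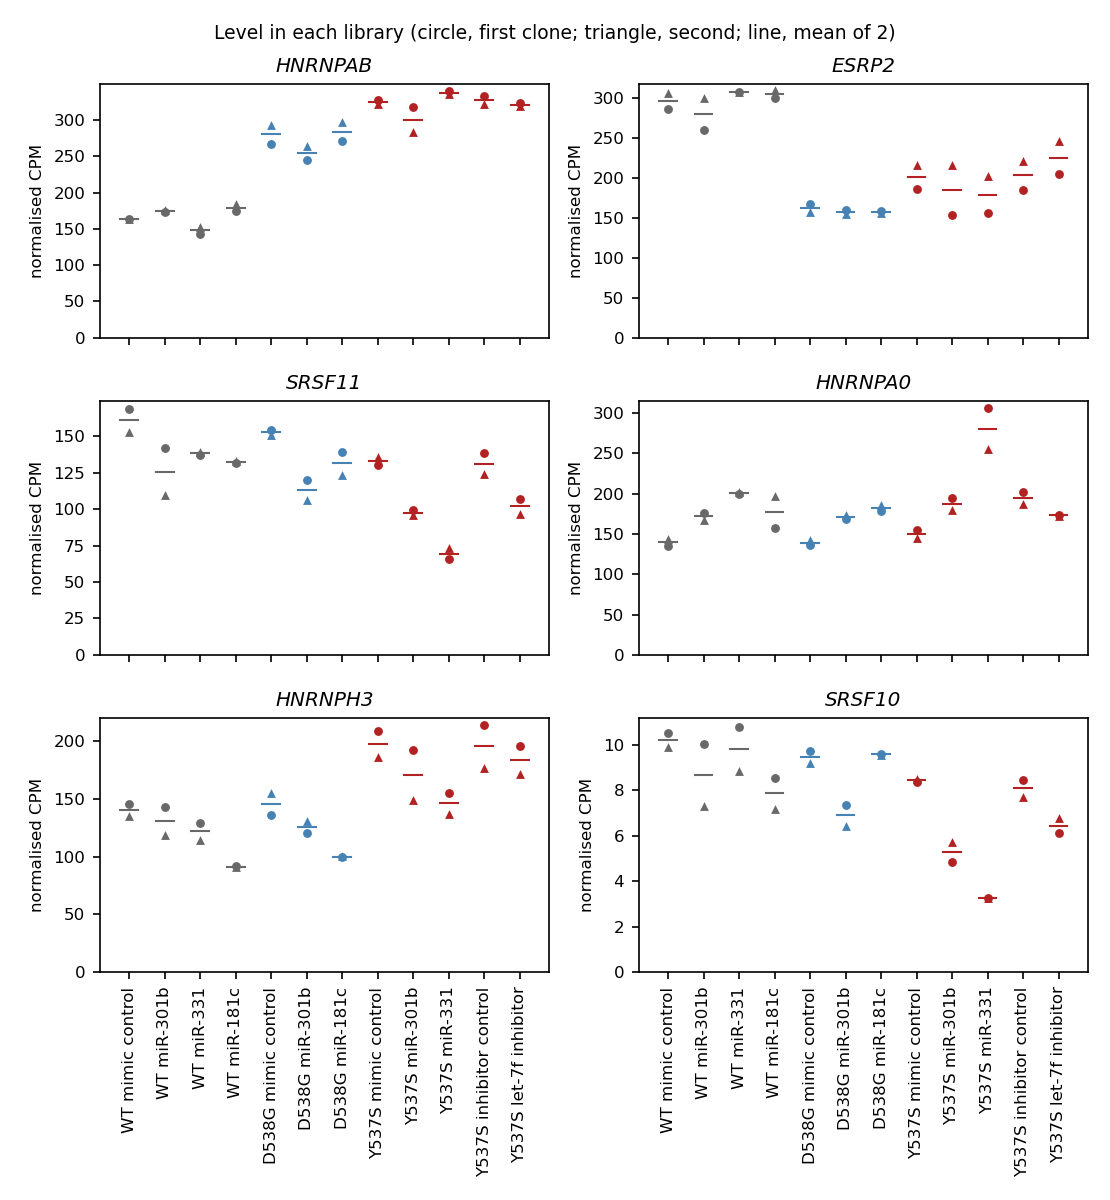
Normalised CPM (y axes, from 0) of 6 members in each of the 24 libraries, by condition (x axis) and coloured by genotype, with the mean of the 2 clones as a line. *HNRNPAB* is higher and *ESRP2* lower in every mutant library than in every WT library, while the mutants overlap each other, *HNRNPH3* is lowest with miR-181c in WT and D538G cells, and *SRSF10* is lowest with miR-331 in Y537S cells.

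The let-7f inhibitor in Y537S cells called no member by edgeR or DESeq2, with 4 members at an unadjusted p under 0.05 by edgeR and 3 by DESeq2. Over the whole set, 786 of 15140 and 644 of 19881 genes were under that p. Of all genes, edgeR called 0% and DESeq2 0.0805% up and 0.317% down. With the clone block 8 members (21.6%) were down and 2 (5.41%) up, against 6.88% and 4.31% of all genes tested. The GC correction alone gave no call by edgeR (5 members and 553 of 15140 genes at an unadjusted p under 0.05). With the block added 9 members were down and 3 up, against 5.8% and 4.49% of all genes. The 3 members of smallest p with the block alone, chosen because none was called without it, were *SRSF11* (107 and 97 CPM against 139 and 124 with the inhibitor control, adjusted p = 1.39e-05), *SRSF3* (299 and 264 against 351 and 328, adjusted p = 2.81e-05) and *SRSF1* (409 and 379.7 against 465 and 440.3, adjusted p = 0.000223). Their log2 fold changes with the block were −0.36, −0.27 and −0.19. For all 3 the inhibitor libraries were below the controls. *TRA2B* was at 213 and 207 CPM against 244 and 247, and *HNRNPA1* at 28.8 and 20.3 against 34.4 and 28.2. The inhibitor and mimic controls were also compared, to see what the control oligonucleotide itself changes. No member was called by edgeR or DESeq2, with 2 members at an unadjusted p under 0.05 by edgeR and 1 by DESeq2. How many of all genes had such a p between the controls, here and after the GC correction, is not given. Of all genes, edgeR called 0% and DESeq2 0.477% higher and 0.0754% lower. With the block 5 members (13.5%) were lower and 3 (8.11%) higher with the inhibitor control, against 7.84% and 8.87% of all genes. The GC correction alone gave no call by edgeR (2 members at an unadjusted p under 0.05), and with the block 3 members were lower and 5 higher, against 6.78% and 8.64% of all genes, which turned the balance. The 3 of smallest p with the block alone were *HNRNPA0* (202 and 187 CPM against 155 and 145), *HNRNPC*, which binds uridine tracts (399 and 374 against 457 and 423), and *HNRNPDL* (292 and 260.4 against 322 and 292). Their log2 fold changes were 0.36, −0.20 and −0.17, and none overlapped between the controls, with the nearest libraries of *HNRNPDL* less than 1 CPM apart.

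*HNRNPA0* and *ESRP1* had all mimic control libraries on the same side of all others, and the cause was not tested. *HNRNPA0* was at 136 to 155 CPM in the 6 mimic control libraries and at 157 to 306 CPM in the other 18, and *ESRP1* at 292 to 309 against 254 to 290 CPM. This separation in every library was found for 1 member in each direction (2.70%), against 0.463% of all genes tested for control libraries below and 0.252% for control libraries above all others, and was looked for after the values were seen. Against the mimic control, *HNRNPA0* in the inhibitor control was higher by 0.36 on the log2 scale (adjusted p = 0.575, and 2.24e-07 with the clone block). The mimic comparisons of a genotype share its 2 control libraries, so within a genotype the increase of *HNRNPA0* with 1 mimic is not independent of that with another. *HNRNPA0* held 2 matches to miR-301b and 3 to miR-181c in its 7498-base 3′UTR and was nevertheless higher with both.

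Other genes of the splicing pathway were read from lists outside the name rule, against the shares of all genes tested, which were 16.3% up and 12.7% down in Y537S and 20.4% up and 18.5% down in D538G cells. Of 29 snRNP and Sm protein genes tested, the core of the spliceosome, 15 were up and none down in Y537S against WT cells and 17 were up and 2 down in D538G cells. Their medians were 0.31 and 0.26, beside 0.00 over all genes, and *PRPF4* rose by 0.84 and 0.73. Of 19 branch site factors, 6 were up and none down in Y537S and 9 up and 1 down in D538G cells, among them *SF3A2* (0.58 and 0.54). Of 18 nonsense-mediated decay factors, 5 and 8 were up and none down, with *NCBP1*, a cap-binding protein, at 1.13 and 0.86. Of 13 kinases and phosphatases of SR proteins, 2 were up and 4 down in each mutant, and *CLK1*, a kinase that phosphorylates SR proteins, fell by 1.01 and 0.58. Of 32 other splicing regulators, 10 were up and 4 down in Y537S and 9 up and 6 down in D538G cells. The GC correction moved none of these counts by more than 2 genes.

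With the miR-331 mimic 17.2% of all genes were up and 15.8% down in Y537S cells, and 14.2% and 10.6% in WT cells. After the GC correction these shares were 11.2% and 9.28%, and 5.09% and 2.56%. In Y537S cells 15 snRNP genes were up and 4 down (median 0.39), which became 8 and 1 after the GC correction, and in WT cells 3 were up and 3 down (median 0.03), which became 3 and 1. The branch site factors were 8 up and 1 down in Y537S (3 and 0 after the correction) and 5 up and 5 down in WT cells (0 and 1), with *PUF60* at 0.89 and 0.46. The kinases and phosphatases were 1 up and 6 down in Y537S cells (3 and 4 after the correction), where *CLK1* fell by 1.53, and its response differed from that in WT cells by −1.34 (SE 0.258, adjusted p = 0.0183). The other regulators were 4 up and 14 down (3 and 9 after the correction), led by *PNISR* (−1.73) and *SREK1* (−1.43), both with SR-like domains. The decay factors were 5 up and 5 down (2 and 2 after the correction), with *SMG1*, a kinase of the pathway, at −1.33. With miR-181c the other regulators were 2 up and 3 down in D538G and 3 up and 5 down in WT cells (1 and 1, and 2 and 2, after the correction). Of all genes 5.58% were up and 3.95% down in D538G and 8.10% and 8.28% in WT cells. After the correction these were 0.587% and 0.782%, and 3.36% and 4.04%. *PTBP3*, the paralog of *PTBP1*, fell with miR-181c by 0.91 and 1.38. *SRPK2*, a kinase that phosphorylates SR proteins, fell with miR-181c by 0.62 in D538G and 0.83 in WT cells. With miR-301b *MBNL1* fell by 0.63, 0.60 and 0.47 in Y537S, D538G and WT cells. Of the other regulators 3, 6 and 2 were down and 1, 2 and 1 up. Of all genes 2.34%, 6.49% and 3.87% were down and 1.23%, 5.29% and 4.63% up. After the correction edgeR called none of these regulators down in any of the 3 genotypes and 0, 1 and 2 up. Then 0.112%, 0.909% and 2.81% of all genes were down and 0.0396%, 0.579% and 1.84% up. With the let-7f inhibitor, and between the inhibitor and mimic controls, edgeR without the block called no gene of these 5 lists. With the block and the let-7f inhibitor 4 snRNP genes were up and 4 down, and 2 other regulators were up and 6 down. Of all genes 4.31% were up and 6.88% down. Between the controls, with the block, 5 snRNP genes were higher and 1 lower with the inhibitor control, and 3 other regulators were higher and 7 lower. Of all genes 8.87% were higher and 7.84% lower.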

How the data were processed

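The deposited tables held raw counts per gene. The authors had aligned poly-A selected, stranded reads to hg19 with HISAT2, converted them with SAMtools and counted them over UCSC Known Genes with featureCounts of Subread. Tool versions, whether counting used strand, and how multi-mapping reads were handled are not given in the sources used here. Groups came from the GEO labels; for D538G and WT the clone was read from column headings. Counts were tested with edgeR 4.0.16 (R 4.3.3) by the quasi-likelihood F test with TMM scaling and filterByExpr in the libraries compared, and p was adjusted over all genes tested by Benjamini-Hochberg, with a call at adjusted p under 0.05. All 37 members passed the filter in every comparison. SE is the log2 fold change divided by the root of F, and CPM used TMM factors over all 24 libraries. With 2 against 2 libraries, an exact permutation test cannot go below p = 0.333, so p rests on the spread shared across genes. Libraries of a group differed by 11.2 to 48.3 times counting noise, so none was a duplicate library. Differences between the clones of a genotype correlated between treated and control libraries (r from 0.326 to 0.769 across genes), and the clone was used as a replicate block because the same clones were transfected throughout. Transcript GC content, 3′UTRs and positions came from GENCODE on GRCh37: 22393 of 26364 symbols matched directly, 1358 through RefSeq synonyms and 2613 not. The GC correction removed a lowess trend (span 0.3) of log2 level on GC content as an offset. DESeq2 1.42.0, RLE size factors, no filter and leaving out each library were alternatives. The members and lists were chosen with earlier results of these data known; every member could be named, with values by library for *SRSF1*, *HNRNPA1*, *TRA2B* and the members of largest change per comparison (3, or 2 for a difference between responses), and at most 2 called genes of each other list.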

Additional observations from a re-analysis of the deposited data

Results flagged for a closer look

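The response to the miR-331 mimic differed between Y537S and WT cells for 4 members by the interaction test of edgeR. Of all genes tested 6.47% were lower and 3.47% higher in Y537S cells by this test. The share of members called was near that of all genes. On the log2 scale, Y537S minus WT, the difference was −1.34 for *SRSF10*, −0.74 for *SRSF11*, −0.63 for *HNRNPH1* and 0.41 for *HNRNPL*. All 4 were also called with the clone as a block, and *HNRNPL* was not called after the GC correction. Whether they were called also depended on single WT libraries, as given with that comparison above.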

How the results depend on the processing

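The shares of all genes with the block, with the GC correction and in the miR-301b mimic libraries stand with each comparison above. The miR-331 difference with both has none there. The clone block raised the calls over all genes too, to 30.5% up and 30.2% down for miR-331 in Y537S cells. Each count below is the number of members called. With the clone as a replicate block, it was 27 (miR-301b, Y537S), 30 (miR-331, Y537S), 10 (let-7f), 23 (miR-301b, D538G), 16 (miR-181c, D538G), 13 (miR-301b, WT), 16 (miR-331, WT), 14 (miR-181c, WT), 8 (inhibitor against mimic control) and 23 (miR-331 response, Y537S minus WT), and no call was lost. With the GC correction it was 0 (miR-301b, Y537S), 11 (miR-331, Y537S), 1 (miR-301b, D538G), 1 (miR-181c, D538G), 3 (miR-331, WT), 4 (miR-181c, WT) and 1 (Y537S against D538G). With the replicate block and the GC correction it was 15 (miR-301b, Y537S), 12 (let-7f), 11 (miR-181c, D538G), 10 (miR-301b, WT), 8 (inhibitor against mimic control) and 18 (the miR-331 difference). DESeq2 gave 8 (miR-301b, Y537S), 9 (miR-181c, D538G), 4 (miR-301b, WT) and 4 (Y537S against D538G). Of all genes, DESeq2 called 3.76% up and 4.95% down (miR-301b, Y537S), 5.17% and 4.11% (miR-181c, D538G) and 4.44% and 4.38% (miR-301b, WT). For Y537S against D538G the share of all genes is not given. RLE size factors gave 0 (miR-301b, Y537S), against 1.26% up and 2.17% down of all genes. No filter gave 13 (miR-301b, D538G), 8 (miR-181c, D538G), 4 (miR-301b, WT), 13 (miR-181c, WT) and 4 (Y537S against D538G). For the first 3 of these 6.7% and 7.87%, 7.14% and 5.28%, and 6.99% and 6.14% of all genes were up and down. For miR-181c in WT cells and for Y537S against D538G these shares are not given. In the miR-301b mimic libraries, chosen after seeing the data, it was 7 (Y537S against WT), 10 (D538G against WT) and 1 (Y537S against D538G). Leaving out 1 library gave 0 to 0 (miR-301b, Y537S), 9 to 14 (miR-331, Y537S), 0 to 9 (miR-301b, D538G), 1 to 6 (miR-181c, D538G), 0 to 5 (miR-301b, WT), 1 to 9 (miR-331, WT), 3 to 9 (miR-181c, WT), 6 to 23 (Y537S against WT), 0 to 3 (Y537S against D538G) and 0 to 6 (the miR-331 difference); the other counts stayed within 1.5 times. For miR-301b in WT cells it was 5 without the mimic library of D1 and 0 without either control.

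Of 96 called member changes, 95 were also called by DESeq2, 94 with RLE factors, 95 without the filter and 59 with the GC correction. The reversed values, on the log2 scale, were *HNRNPR* with miR-331 in Y537S cells (0.272 with the GC correction and with the block added), *HNRNPU* with miR-331 in WT cells (0.009, and 0.010 with the block) and, between Y537S and WT cells in the miR-331 mimic libraries, *HNRNPA2B1* (−0.025), *HNRNPA3* (−0.018) and *HNRNPH1* (−0.358). The cause was not tested. With 2 clones per genotype, a difference between genotypes cannot be told apart from one between clones, and counts per gene hold no isoforms.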
